A study of Mus musculus with 6 samples.

Results

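The mouse Cyp4a genes encode cytochrome P450 enzymes of the endoplasmic reticulum that hydroxylate fatty acids at the omega carbon. The 6 copies described here were chosen by symbol, and with the KO against wild type contrast of these libraries known. They are Cyp4a10, Cyp4a14, Cyp4a31 and Cyp4a32, put together as copies induced by the fatty acid sensor PPAR-alpha, and Cyp4a12a and Cyp4a12b, put together as copies that depend on growth hormone. They are 6 of 24421 genes in the deposited count table. RNA from whole liver was sequenced from 3 samples labelled Sesn3 KO and 3 labelled wild type (WT). Both groups were male C57BL/6 mice aged 4 months. Both were fed for 4 weeks a purified diet with 20% of calories from protein, 40% from fat and 40% from carbohydrate, to which cholesterol (1.25%) and the bile salt sodium cholate (0.5%) had been added, so no group on a standard diet enters these comparisons. Sesn3 encodes sestrin 3, a stress-inducible protein that acts on the AMPK and mTOR pathways. How the deletion was made, and whether the wild types were littermates, is not given in the sources used here. The labels do not say that the samples of a group came from separate animals, so the p-values below measure only the spread between these samples, which may be technical.

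Omega-hydroxylation is the first step of a side route of fatty acid breakdown: the hydroxyl group is oxidised to a second carboxyl group, and the dicarboxylic acid is shortened in peroxisomes. PPAR-alpha, a nuclear receptor that binds fatty acids, pairs with RXR-alpha, and Cyp4a10 and Cyp4a14 are classical mouse liver targets of this pair. Cyp4a12a and Cyp4a12b are higher in male than in female mice, depend on androgen and on the pulsatile male pattern of growth hormone acting through STAT5B, and Cyp4a12a is known as a main maker of 20-HETE from arachidonic acid. The same family thus has members under a lipid sensor and members under a sex-dependent hormone.

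Sesn3 itself was at 0.761, 0.695 and 0.689 CPM (counts scaled to library size and TMM factors, as for all CPM values here) in KO replicates 1 to 3, and at 9.0, 11.6 and 10.4 in the WT replicates. The libraries held 18882220 to 24098512 counts. Across 12945 genes that passed a filter on low counts, 435 were higher and 463 lower in KO at an adjusted p under 0.05 (edgeR quasi-likelihood test with Benjamini-Hochberg adjustment), which is 3.36% and 3.58% of the genes tested. The tissue label was checked on defining markers: 9 hepatocyte markers summed to 124283 to 144474 CPM in KO and 116646 to 167539 in WT, and 9 of 12 kidney markers, among them Umod, Kap and Slc34a1, had 0 counts in all 6 libraries. Cyp4a genes are strong in kidney as well.

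The 6 genes lie in one stretch of chromosome 4 (GRCm38/mm10, GENCODE release 21), from the start of Cyp4a12a to the end of Cyp4a32, which spans 322.6 kb, and each has 12 coding exons. Cyp4a12a (ENSMUSG00000066071.6, chr4:115299046-115332815) and Cyp4a12b (ENSMUSG00000078597.2, chr4:115411624-115439034) are at one end. Then follow Cyp4a14 (ENSMUSG00000028715.2, chr4:115486200-115496142), Cyp4a10 (ENSMUSG00000066072.13, chr4:115518264-115533649), Cyp4a31 (ENSMUSG00000028712.12, chr4:115563649-115579015) and Cyp4a32 (ENSMUSG00000063929.6, chr4:115600969-115621602). Cyp4a14 is on the minus strand and the other 5 are on the plus strand. The Cyp4a12 pair and the other 4 copies thus sit in 2 adjoining blocks, and Cyp4a14 is 75.79% identical in coding sequence to Cyp4a12b on one side and 75.11% to Cyp4a10 on the other. To show how alike the copies are, 120 coding bases are printed around the conserved cysteine that holds the heme iron of P450 enzymes. They are given 5′ to 3′ on the coding strand, joined across an intron, with capitals where a copy differs from Cyp4a10.
Cyp4a10, chr4:115529457-115532588, plus strand: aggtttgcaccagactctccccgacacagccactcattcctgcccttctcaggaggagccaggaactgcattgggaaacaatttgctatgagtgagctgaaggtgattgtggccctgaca
Cyp4a14, chr4:115487254-115489850, minus strand: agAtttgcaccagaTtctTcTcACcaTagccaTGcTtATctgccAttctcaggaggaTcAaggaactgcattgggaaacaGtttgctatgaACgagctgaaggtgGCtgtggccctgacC
Cyp4a12a, chr4:115328941-115331891, plus strand: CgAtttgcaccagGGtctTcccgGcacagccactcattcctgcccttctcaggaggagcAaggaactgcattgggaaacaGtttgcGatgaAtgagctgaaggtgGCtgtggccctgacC
Cyp4a31 and Cyp4a32 hold the same 120 bases as Cyp4a10, with 0 differences, and Cyp4a12b holds the same as Cyp4a12a. Cyp4a14 differs from Cyp4a10 at 21 of the 120 positions and Cyp4a12a at 13.

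Reads from the stretch above cannot be assigned to one of Cyp4a10, Cyp4a31 and Cyp4a32, or to one of Cyp4a12a and Cyp4a12b, so the places where these copies part matter for their counts. Over the whole coding sequence, Cyp4a10 was 96.59% identical to Cyp4a31 and 97.18% to Cyp4a32, and Cyp4a12a was 98.49% identical to Cyp4a12b, with 23 differing bases in 1524. The 120-base windows with the most differences are printed below, with capitals at the positions that vary within each set: 15 of the 77 variable positions among the first 3 copies, and 8 of the 23 in the Cyp4a12 pair.
Cyp4a10, chr4:115518481-115519719, plus strand: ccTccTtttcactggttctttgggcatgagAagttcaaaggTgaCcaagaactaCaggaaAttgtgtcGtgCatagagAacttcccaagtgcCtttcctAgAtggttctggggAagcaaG
Cyp4a31, chr4:115563876-115565099, plus strand: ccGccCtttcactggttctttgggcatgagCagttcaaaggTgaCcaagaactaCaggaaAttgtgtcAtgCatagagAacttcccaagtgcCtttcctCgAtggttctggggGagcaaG
Cyp4a32, chr4:115601134-115602349, plus strand: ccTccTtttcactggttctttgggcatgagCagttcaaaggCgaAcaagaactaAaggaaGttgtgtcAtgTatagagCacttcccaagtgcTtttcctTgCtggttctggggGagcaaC
Cyp4a12a, chr4:115326642-115326761, plus strand: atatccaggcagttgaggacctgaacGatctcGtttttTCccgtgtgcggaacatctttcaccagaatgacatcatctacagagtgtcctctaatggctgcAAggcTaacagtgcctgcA
Cyp4a12b, chr4:115432895-115433014, plus strand: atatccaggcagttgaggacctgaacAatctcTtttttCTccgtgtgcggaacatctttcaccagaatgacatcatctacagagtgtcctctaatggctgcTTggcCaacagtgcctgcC
The first 3 windows are joined across an intron and the Cyp4a12 windows lie in 1 exon. Of all 100-base windows along the coding sequence, 17.9% in Cyp4a10, 13.9% in Cyp4a31 and 20.1% in Cyp4a32 occur unchanged in another of the 6 genes. The share was 41.3% in both Cyp4a12 genes and 0 in Cyp4a14. How reads that fit several copies were counted is not given in the sources used here, so the split of counts within Cyp4a10, Cyp4a31 and Cyp4a32 and within the Cyp4a12 pair is uncertain, while Cyp4a14 does not share such windows.

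Among the copies grouped under PPAR-alpha, Cyp4a10, Cyp4a14 and Cyp4a31 were higher in every KO library than in any WT library, and Cyp4a32 was not. These values chose the genes, so they are given as a description with no test. Cyp4a10, the most abundant of them, was at 181, 300.2 and 239 CPM in KO replicates 1 to 3 and at 70.2, 24.8 and 18.1 in the WT replicates. The lowest KO value was above the highest WT value, which came from WT replicate 1. The fitted difference was 2.67 on the log2 scale (SE 0.52), 6.36-fold higher in KO, and 3.50 without WT replicate 1. Cyp4a14 was at 60.5, 261 and 205 CPM in KO and at 20.5, 17.4 and 17.9 in WT, 9.42-fold higher in KO (log2 3.24, SE 0.51). KO replicate 1 was far below the other KO libraries here, and still above every WT library.

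Cyp4a31 had the largest fold in this direction, from a low WT level: 13.7, 37.5 and 38.7 CPM in KO against 2.20, 1.10 and 0.427 in WT, where the WT values rest on 42, 19 and 8 counts. The difference was 23.9-fold (log2 4.58, SE 0.62), and 5.31 on the log2 scale without WT replicate 1. Cyp4a32 goes against the label of an induced copy in these samples. It was at 6.89, 23.8 and 28.0 CPM in KO and at 19.7, 10.99 and 10.2 in WT, so the lowest value of all 6 was a KO library and the groups overlapped. Its fitted log2 difference was 0.52 (SE 0.51), and leaving out 1 library at a time moved it between 0.17 and 0.93. With the counts of Cyp4a10, Cyp4a31 and Cyp4a32 added together, the log2 difference was 2.46 (SE 0.47). This sum does not depend on how counted reads were split among the copies, but any reads that were not counted stay missing. Cyp4a10 is its most abundant part.

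Both Cyp4a12 genes were lower in every KO library than in any WT library. Cyp4a12a was at 3.93, 1.16 and 2.84 CPM in KO and at 25.5, 180 and 264 in WT. Its WT libraries spanned 10.4-fold, with WT replicate 1 lowest, and even that value was above all KO values. The fitted difference was -5.89 on the log2 scale (SE 0.94), 59.4-fold lower in KO, and only 4 of the 12945 genes tested had a more negative one. Without WT replicate 3 it was -5.27, and without any other single library it was no closer to 0 than that. Cyp4a12b was at 3.89, 2.35 and 3.19 CPM in KO and at 31.9, 78.6 and 61.4 in WT, 18.2-fold lower in KO (log2 -4.19, SE 0.38). Again WT replicate 1 was the lowest WT library. With the counts of both Cyp4a12 genes added, the log2 difference was -5.21 (SE 0.70).

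**Figure D1:**
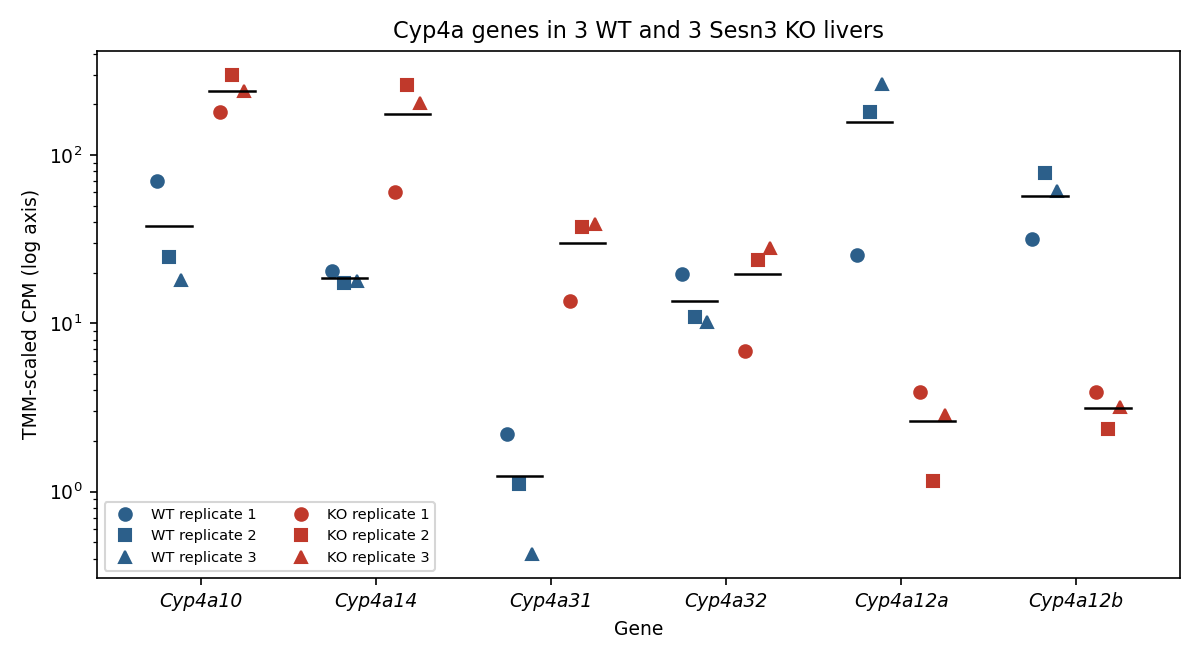
Level of each of the 6 Cyp4a genes in TMM-scaled CPM on a log axis, with 1 point per library for 3 WT and 3 Sesn3 KO liver samples and a bar at each group mean. The groups are apart for every gene except Cyp4a32, with KO above WT in Cyp4a10, Cyp4a14 and Cyp4a31 and below it in Cyp4a12a and Cyp4a12b.

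In all, 3 of the 6 genes were above and 2 below WT in every library, and the same 5 passed the edgeR threshold that 6.94% of all genes passed. Over all genes tested, 16.9% were above and 16.6% below WT in every library, or 33.5% in either direction. Since these genes were picked on this contrast, nothing is read from their count. By size, 17 genes had a larger positive log2 difference than Cyp4a31, 47 than Cyp4a14, 91 than Cyp4a10 and 1944 than Cyp4a32. On the negative side, 21 genes were further out than Cyp4a12b.

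Levels can be set beside each other between genes only per length, here as TMM-scaled CPM per kilobase of exon. The share of 100-base coding windows found in another copy was 0 in Cyp4a14 and 41.3% in the Cyp4a12 genes. If reads that fit several copies were not counted, the levels, and the shares and ratios below, would be lowered unequally. This was not tested. In WT liver, Cyp4a12a led at 64.6 ± 49.98 (SD, n = 3), then came Cyp4a12b at 23.9 ± 9.87, Cyp4a10 at 17.9 ± 13.4, Cyp4a32 at 8.88 ± 3.44, Cyp4a14 at 7.16 ± 0.642 and Cyp4a31 at 0.495 ± 0.356. Only the last step of this order, from Cyp4a14 to Cyp4a31, lay outside the range of the libraries, and each other pair of neighbours overlapped. In KO liver the order was Cyp4a10 at 113.8 ± 28.2, Cyp4a14 at 67.4 ± 39.8, Cyp4a32 at 12.7 ± 7.26, Cyp4a31 at 11.9 ± 5.64, Cyp4a12b at 1.31 ± 0.321 and Cyp4a12a at 1.09 ± 0.577. Here the steps from Cyp4a14 to Cyp4a32 and from Cyp4a31 to Cyp4a12b lay outside the range of the libraries, and the other neighbours overlapped. The gene with the highest mean in WT was thus the one with the lowest mean in KO. Per kilobase of coding sequence instead of exon, Cyp4a31 and Cyp4a32 changed places in KO, as did Cyp4a14 and Cyp4a32 in WT.

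The genotypes were apart in the make-up of the Cyp4a RNA and not in its sum. The 6 genes together came to 122, 275 and 228 CPM per kilobase in KO replicates 1 to 3 and to 78.7, 133 and 157 in WT, so the groups overlapped: KO replicate 1 was below WT replicates 2 and 3. Of this sum, Cyp4a12a and Cyp4a12b gave 30.3%, 80.4% and 85.8% in the WT libraries and 2.65%, 0.532% and 1.10% in the KO libraries. The KO libraries were all near 0 and the WT libraries ranged widely, with WT replicate 1 apart from the other WT libraries. The ratio of the 4 copies grouped under PPAR-alpha to the Cyp4a12 pair was 2.30, 0.243 and 0.166 in WT and 36.7, 187 and 90.0 in KO. In WT replicate 1 the first set already outweighed the second.

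**Figure D2:**
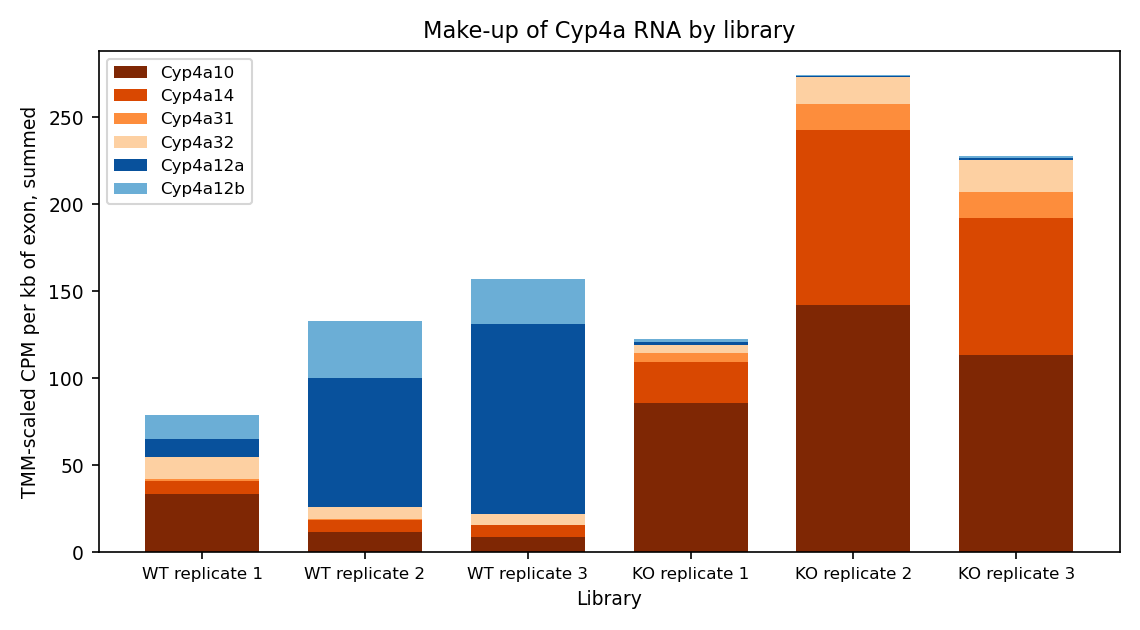
Stacked bars of TMM-scaled CPM per kilobase of exon for each of the 6 genes, 1 bar per library. Cyp4a12a and Cyp4a12b make up 30.3% to 85.8% of the bar in the 3 WT libraries and at most 2.65% in the 3 KO libraries.

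Ratios within each set behaved differently. Cyp4a10 stood to Cyp4a14 as 4.22, 1.76 and 1.24 per kilobase in WT and as 3.70, 1.42 and 1.44 in KO, so the groups overlapped and replicate 1 was highest in both. The ratio of Cyp4a12a to Cyp4a12b was 0.791, 2.26 and 4.26 in WT and 0.9996, 0.486 and 0.882 in KO, which also overlapped. The ratio of Cyp4a31 to Cyp4a32 was 0.0682, 0.0615 and 0.0256 in WT and 1.21, 0.967 and 0.848 in KO, with a wide gap between the groups. Per kilobase of exon, Cyp4a31 was thus far below Cyp4a32 in WT liver and level with it in KO liver, although the coding sequences are 96.01% identical. Per kilobase of coding sequence, the means of Cyp4a31 and Cyp4a32 were 0.814 and 8.93 in WT and 19.6 and 12.8 in KO. The WT values of Cyp4a31 rest on 42, 19 and 8 counts, and the split of reads between these copies is uncertain.

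Copies with nearly the same sequence did not always have the most alike profiles across the 6 libraries. The measure of pattern is the root mean square (RMS) difference between 2 genes' log2 CPM after each gene is centred on its own mean, where 0 means the same profile. Cyp4a10 and Cyp4a14 differed by 0.70 with coding sequences 75.11% identical. Cyp4a31 and Cyp4a32 differed by 2.15 with 96.01% identity, and Cyp4a12a and Cyp4a12b by 1.03 with 98.49%. Cyp4a10 differed by 0.93 from Cyp4a31 and by 1.39 from Cyp4a32. The 4 pairs with 96.01% to 98.49% identity thus ranged from 0.93 to 2.15. The other 11 pairs, with 74.85% to 80.03%, ranged from 0.70 to 5.34, the last between Cyp4a31 and Cyp4a12a. The profiles share the same 6 libraries, and the pairs share genes, so these values are a description.

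**Figure D3:**
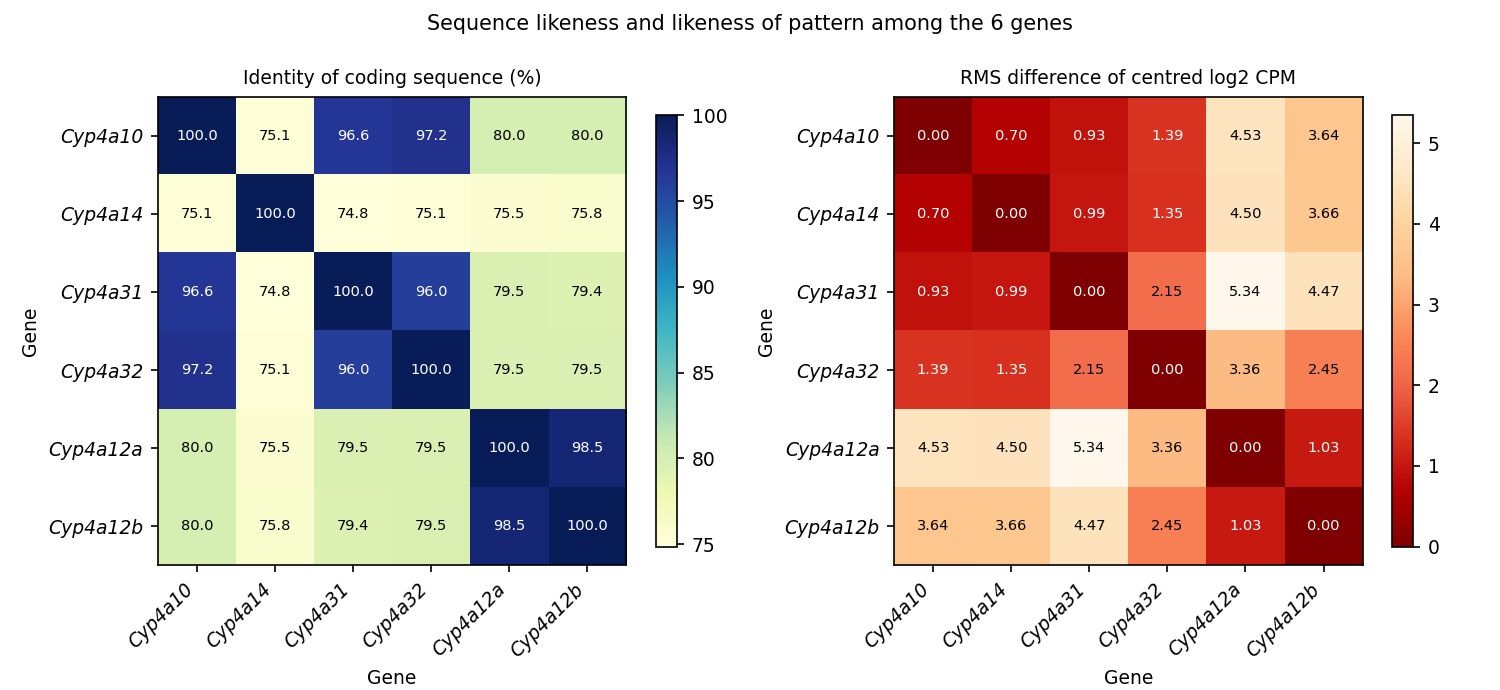
Left, percent identity of coding sequence for each pair of the 6 genes; right, the RMS difference of centred log2 CPM over 6 libraries for the same pairs, with darker red for more alike profiles. Cyp4a14 stands apart in sequence from all others at 74.85% to 75.79% and yet has the profile most like that of Cyp4a10.

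Libraries of one genotype differed more in these genes than in most, apart from Cyp4a14 in WT. The standard deviation of log2 CPM within WT was 1.81 for Cyp4a12a, above that of 99.3% of all genes tested, and 1.02 for Cyp4a10 (above 94.5%), while Cyp4a14 was steady in WT at 0.13 (above 21.9%). Within KO the order differed: Cyp4a14 had an SD of 1.13 (above 99.2% of genes), Cyp4a32 of 1.10 and Cyp4a10 of 0.36. The median gene had 0.24 in WT and 0.19 in KO. KO replicate 1 was the lowest KO library for all 4 copies grouped under PPAR-alpha and the highest for both Cyp4a12 genes. WT replicate 1 was the lowest WT library for both Cyp4a12 genes and the highest for all 4 of the other copies. Within each genotype, the library lowest in one set was therefore highest in the other.

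Other genes of the same pathways showed part of this order. KO replicate 1 was the lowest KO library in 40 of 46 PPAR-alpha targets outside Cyp4a (87% against 37.1% of all genes) and in 16 of 19 female-biased liver genes. WT replicate 1 was the lowest WT library in 25 of 34 male-biased liver genes outside Cyp4a (73.5% against 36.4% of all genes) and the highest in 13 of 19 female-biased genes (68.4% against 33.5%). It was the highest in only 7 of the 46 PPAR-alpha targets (15.2%). So the high Cyp4a10 of WT replicate 1 was not shared by most PPAR-alpha targets. Libraries left out one at a time are given beside the counts below for this reason.

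Few genes around the cluster could be tested. Within 250 kb of it, 13 other genes were in the table, 7 of them passed the filter, and 1 was called, while 6.94% of all genes tested were called. This was Mknk1, a kinase that phosphorylates the translation factor eIF4E. It rose by 1.07 on the log2 scale (SE 0.15, adjusted p = 0.0106, edgeR), and was not called without KO replicate 2 (0.0591). The closest tested neighbour, Cyp4b1, a P450 of another subfamily, was at 12.2 ± 4.08 CPM in KO and 18.7 ± 4.97 in WT (log2 -0.61, SE 0.30, adjusted p = 0.243, edgeR). Cyp4a30b, which lies between Cyp4a12b and Cyp4a14, and Cyp4x1 and Cyp4a29, which lie within the window outside the cluster, had 0 counts in all 6 libraries.

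**Figure D4:**
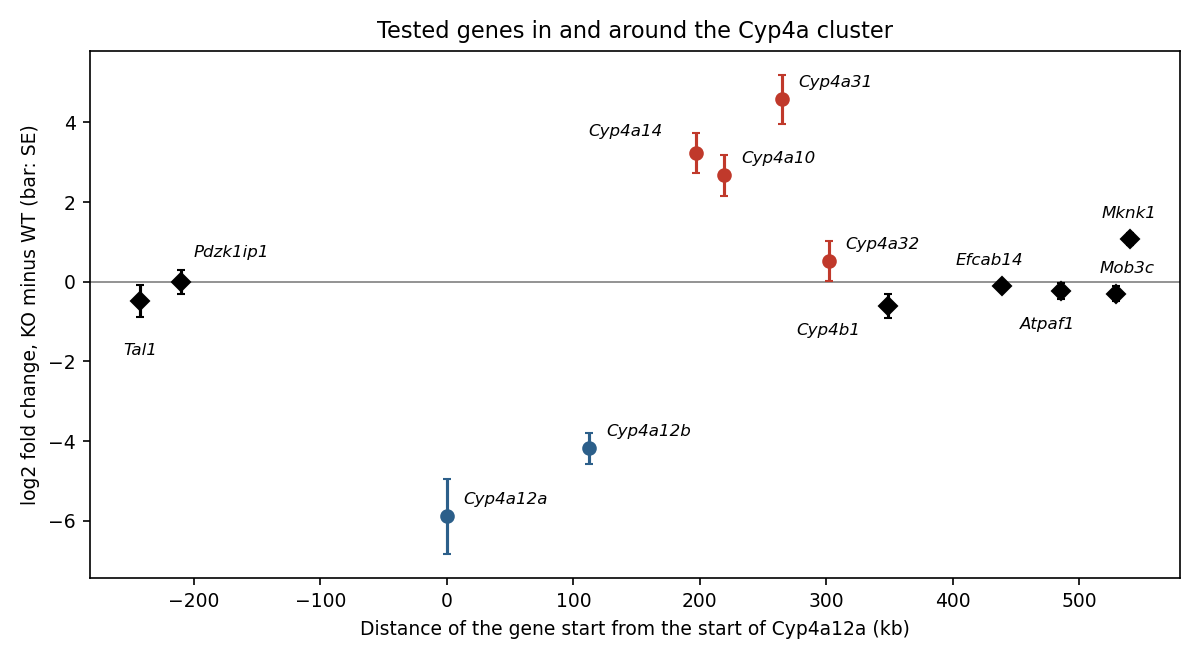
log2 fold change, KO minus WT, of each tested gene in and around the cluster against the distance of its start from the start of Cyp4a12a in kb; bars are the SE of the fit, red and blue circles are the Cyp4a genes and black diamonds other genes. The 2 blue points at the left of the cluster are negative, at -5.89 and -4.19, and the 4 red points at its right are positive, with Cyp4a32 within about 1 SE of 0.

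Other Cyp4 genes were lower where edgeR called them. Of 16 in the table, Cyp4a29 and Cyp4a30b included, 8 were tested, all outside the Cyp4a subfamily. By the edgeR test 0 of these were higher (against 3.36% of all genes) and 2 lower (25% against 3.58%). At an unadjusted edgeR p under 0.05, 1 was higher and 3 lower, against 1614 and 1720 of all 12945 genes. With limma-voom and DESeq2, 1 was called higher by each. Their median log2 difference was -0.51 against 0.00 over all genes. Cyp4f14, an omega-hydroxylase of leukotriene B4, was at 137, 44.3 and 75.1 CPM in KO and 303, 417 and 269 in WT, and fell by 1.95 on the log2 scale (SE 0.41, adjusted p = 0.0385, edgeR). Cyp4v3, an omega-hydroxylase of medium-chain fatty acids, fell by 0.95 (SE 0.20, adjusted p = 0.0337). Without KO replicate 2, KO replicate 3 or WT replicate 3, neither was called: of the fits that leave out 1 library, Cyp4f14 was called only with KO replicate 1 left out, and Cyp4v3 only with WT replicate 1 or 2 left out. Cyp4f14 was also not called on library sizes alone or with no filter on low counts, which left 1 of the 8 called lower. Cyp4f16 was higher in all KO libraries by 1.37 without passing (adjusted p = 0.0723).

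For the PPAR-alpha side, the receptor itself was lower, not higher, in KO. Ppara was at 116, 183 and 221 CPM in KO and at 317.6, 317.6 and 323.3 in WT, without overlap, with a fitted log2 value of -0.88 (SE 0.23) and an adjusted p of 0.0607 (edgeR), just short of the threshold. KO replicate 1, which was also the lowest KO library in the 4 copies grouped under PPAR-alpha, had the lowest Ppara. Of 13 regulators in the list (the receptor, RXR partners and coregulators), edgeR called 0, against 6.94% of all genes tested. At an unadjusted p under 0.05, 1 was higher and 1 lower. DESeq2 called 1 lower, which was Ppara, limma-voom called 0 in either direction, and edgeR on library sizes alone called 1 higher.

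Of 46 PPAR-alpha targets outside Cyp4a, 6 rose and 1 fell, or 13% and 2.17% against 3.36% and 3.58% of all genes tested, and the list's median was 0.10, against 0.00 over all genes. Fgf21, a hormone of fasting released by the liver, was at 36.2, 37.0 and 28.7 CPM in KO and 1.26, 0.523 and 1.66 in WT, and rose by 4.87 on the log2 scale (SE 0.34, adjusted p = 0.00212, edgeR). Acot2, a mitochondrial acyl-CoA thioesterase, rose by 3.38 (SE 0.22, adjusted p = 0.00183). Both calls were kept without any single library. Abcd2, a peroxisomal fatty acyl-CoA transporter, rose by 2.72, Plin2, a lipid droplet coat protein, by 1.30, Crat, carnitine acetyltransferase, by 1.28, and Gpt2, a mitochondrial alanine transaminase, by 0.99. Fabp1, the liver fatty acid binding protein, fell by 1.26 on that scale (adjusted p = 0.0464). Gpt2 and Fabp1 were named after their values were seen. Plin2 was not called without KO replicate 2, Abcd2 without KO replicate 2 or WT replicate 3, and Crat without KO replicate 2, KO replicate 3 or WT replicate 3. Among fits that leave out 1 library, Fabp1 was called only with WT replicate 1 left out and Gpt2 only with KO replicate 1 left out.

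Cpt1a, which brings fatty acids into mitochondria, was at 366, 743 and 815 CPM in KO and 373, 477 and 515 in WT. The groups overlapped, with KO replicate 1 lowest of all 6 libraries, and the log2 difference of 0.50 (SE 0.31) did not pass (adjusted p = 0.352, edgeR). The list's median of 0.10 thus stands beside 3 Cyp4a copies that were 6.36-fold to 23.9-fold higher. The number of targets that rose was 2 without KO replicate 2 and lay between 4 and 8 without any other single library.

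Among enzymes that work with or after the Cyp4a proteins, genes were called in both directions. Of 30 tested, 2 rose (6.67% against 3.36% of all genes) and 3 fell (10% against 3.58%), with a median of -0.32. Those that rose were Abcd2 and Crat, named above. Cyb5b, the outer mitochondrial cytochrome b5, fell by 1.25 on the log2 scale (adjusted p = 0.0109, edgeR), Adh4, an alcohol dehydrogenase, by 1.22 (0.0297) and Ephx2, the soluble epoxide hydrolase, by 1.06 (0.046). Without KO replicate 2, 0 of the 30 were called. Cyb5b was also not called without KO replicate 3, Adh4 without KO replicate 1 or WT replicate 1, and Ephx2 was called only with WT replicate 1 left out. Por, the reductase that passes electrons to all microsomal P450 enzymes, was at 370, 958 and 1137 CPM in KO and 603, 667 and 614 in WT, with KO replicate 1 lowest of all 6 libraries (log2 0.39, SE 0.38, adjusted p = 0.561).

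On the growth hormone side, the receptor was lower in KO. Ghr was at 118, 138 and 168 CPM in KO and 448, 556 and 394 in WT, and fell by 1.72 on the log2 scale (SE 0.20, adjusted p = 0.00626, edgeR); without KO replicate 2 the adjusted p was 0.0525. It was the 1 gene called among 18 tested genes of the path from growth hormone to STAT5 (5.56%, near the 3.58% of all genes that fell), whose median was -0.28; the other direction had 0 calls, also by DESeq2, limma-voom and at an unadjusted p under 0.05. Stat5b, the transcription factor of that path, had a log2 difference of -0.29 (SE 0.14, adjusted p = 0.225), and Socs2, a feedback inhibitor that STAT5 switches on, of -0.46 (SE 0.41, adjusted p = 0.525) with overlapping groups.

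Male-biased liver genes were low together with Cyp4a12a and Cyp4a12b. Of 34 tested outside Cyp4a, 25 fell (73.5% against 3.58% of all genes) and 0 rose, with a median log2 difference of -2.54; at an unadjusted p under 0.05, 31 were lower and 0 higher, and DESeq2 and limma-voom also called 0 higher. The list includes genes known to be low from earlier results of these libraries, so its count is not independent evidence of direction. Hsd3b5, a male-specific steroid dehydrogenase, was at 1.82, 2.01 and 1.42 CPM in KO and 28.5, 271 and 76.7 in WT, and fell by 6.16 on the log2 scale (SE 0.91, adjusted p = 0.015, edgeR). Slco1a1, an organic anion transporter, had a log2 difference of -6.02, Elovl3, a fatty acid elongase, of -5.41 and Mup12, a major urinary protein, of -5.35. The Mup genes are near-identical copies whose reads can be split among them. The number that fell was 13, 7 and 9 without KO replicates 1, 2 and 3, 31, 24 and 17 without WT replicates 1, 2 and 3, and 18 with limma-voom. Hsd3b5, Elovl3 and Mup12 were not called without any 1 of the KO replicates or with limma-voom, nor Slco1a1 without KO replicate 2 or 3, nor Elovl3 and Mup12 without WT replicate 3, nor Elovl3 with no filter on low counts.

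Female-biased liver genes went the other way in part. Of 19 tested, 6 rose (31.6% against 3.36% of all genes) and 1 fell (5.26% against 3.58%), with a median of 2.0, and this list too includes genes known from earlier results. The list held 34 genes, 33 of them in the table, so these shares and the median cover only the tested part. Genes that failed the filter include Cyp3a41b, with 0 counts in all 6 libraries, and Cux2, described below. Abcd2, named above among the PPAR-alpha targets, is also on this list and is 1 of the 6 that rose, so the counts of these lists are not separate. Prom1, a membrane glycoprotein, was at 18.9, 14.5 and 20.3 CPM in KO and 0.680, 0.988 and 1.28 in WT, and rose by 4.18 on the log2 scale (SE 0.27, adjusted p = 0.00183, edgeR). Cyp2a4, a steroid 15-alpha-hydroxylase, rose by 4.04 (adjusted p = 0.0224). Gna14, a G protein subunit, fell by 2.33 (adjusted p = 0.00429), while 4 of the 19 had a negative log2 difference and 15 a positive one. Leaving out KO replicate 2 or WT replicate 3 left 1 that rose, and leaving out KO replicate 3 left 2. Prom1 and Gna14 were called without any single library, and Cyp2a4 was not called without KO replicate 2, KO replicate 3 or WT replicate 3, or with limma-voom. Among 18 other nuclear receptors that act on liver P450 genes, 0 rose and 1 fell (5.56%, near the 3.58% of all genes), Thrb, a thyroid hormone receptor (log2 -0.89, SE 0.12, adjusted p = 0.0113, and 0.0586 without KO replicate 2). Here DESeq2 and limma-voom also called 0 higher, edgeR on library sizes alone called 1, and at an unadjusted p under 0.05, 1 was higher and 5 lower.

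**Figure D5:**
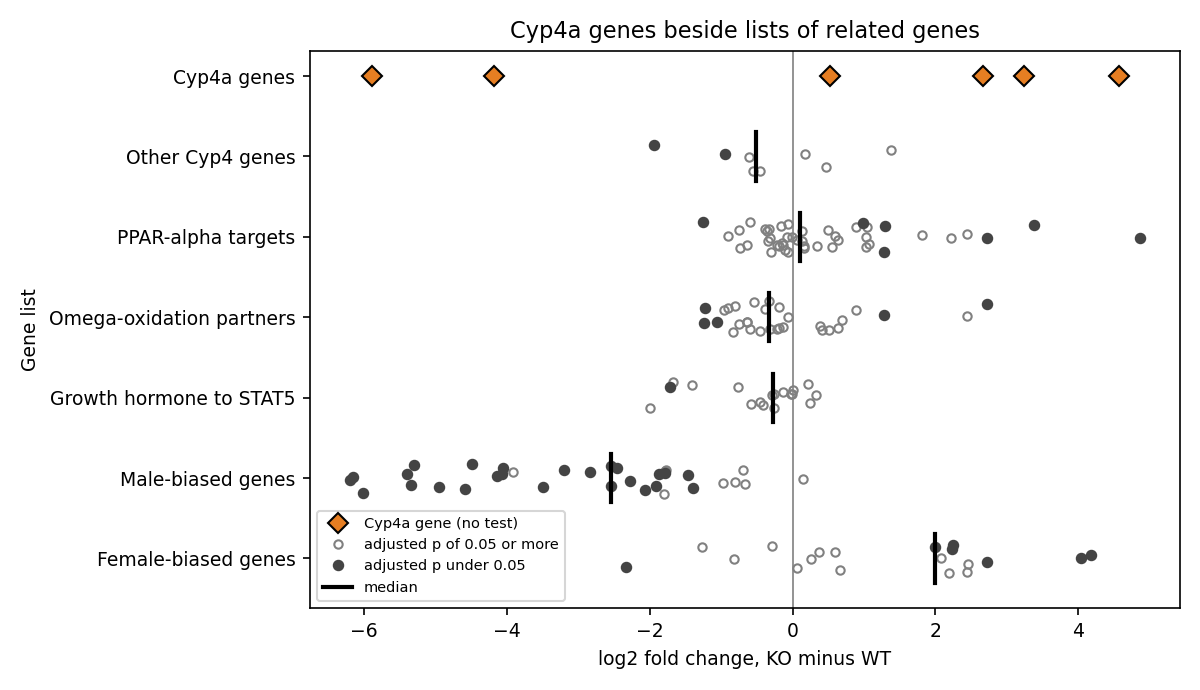
log2 fold change, KO minus WT, of each tested gene in 6 lists beside the 6 Cyp4a genes (diamonds, no test); filled circles had an adjusted p under 0.05 by edgeR, open circles did not, and vertical bars are list medians. The Cyp4a12 genes at -5.89 and -4.19 lie within the spread of the male-biased list (median -2.54), and Cyp4a10, Cyp4a14 and Cyp4a31 lie to the right of most PPAR-alpha targets (median 0.10).

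The genes whose profile over the 6 libraries was most like that of Cyp4a14 and of Cyp4a12a were found among 11672 genes by the RMS difference used above. Nearest to Cyp4a14 were Gt(ROSA)26Sor, a noncoding transcript, at 0.49, Cyp2b10, a P450 of drug metabolism, at 0.54, Epdr1 at 0.56, Fosb, an AP-1 subunit, at 0.57, and Cyp2a22 at 0.58. None of these 5 is a listed PPAR-alpha target, and Cyp2b10 and Cyp2a22 are on the female-biased list. The RMS difference is not scaled, so a gene with a much smaller fold than Cyp4a14 cannot come near it whatever its shape. Gt(ROSA)26Sor, Epdr1 and Fosb were low in WT, with means of 0.760, 0.316 and 0.442 CPM. Of these, Gt(ROSA)26Sor and Epdr1 were not called (adjusted p = 0.0581 and 0.0509, edgeR). Cyp2b10 was at 43.9, 104 and 127 CPM in KO and 16.9, 21.3 and 19.9 in WT, so it shares with Cyp4a14 the low KO replicate 1 and the flat WT libraries. Nearest to Cyp4a12a were Slco1a1 at 0.46, Slc22a28, an organic anion transporter family gene, at 0.65, Mup12 at 0.69, Mup7 at 0.75 and Mup14 at 0.80. The KO values of Slc22a28 rest on 3, 1 and 3 counts. Slco1a1 was at 6.34, 2.59 and 4.35 CPM in KO and 69.3, 488 and 300.3 in WT, with WT replicate 1 low as in Cyp4a12a. The same 5 genes came first for each of the 2 with a smaller prior count of 0.5.

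Some markers of other liver cells were higher in KO. In whole liver, fewer cells of a type and less RNA per cell cannot be told apart. Macrophage and leukocyte markers summed to 2569 to 3080 CPM in KO and 1010 to 2421 in WT, with 3 of 14 called higher (edgeR, against 3.36% of all genes). Stellate and myofibroblast markers summed to 966 to 1270 in KO and 319 to 528 in WT, with 4 of 10 called higher. Without any 1 of the KO replicates or without WT replicate 3, 0 of the 14 were called, and of the 10, 0 were called without KO replicate 1, KO replicate 2 or WT replicate 3, 2 without KO replicate 3, and 1 with no filter on low counts. DESeq2 called 6 and 7 higher, and 7 of the 14 were called without WT replicate 1. These alternatives were counted after the data were seen. Cholangiocyte markers summed to 99.4 to 115 CPM in KO and 54.2 to 99.3 in WT, which only just do not overlap. Spp1 gave most of that sum, with means of 90.0 CPM in KO and 73.7 in WT. Sinusoidal endothelial markers summed to 208 to 444.3 in KO and 377 to 486 in WT, which overlap. Of the 6 cholangiocyte and 8 endothelial markers tested, 0 were called by edgeR, DESeq2 or limma-voom, and 1 and 2 had an unadjusted p under 0.05 by edgeR. Their part in the Cyp4a values was not tested. Kidney markers, with 9 of 12 at 0, summed to 0.116 to 1.01 CPM in KO and 0.209 to 3.37 in WT, against 25.5 to 264 CPM of Cyp4a12a in WT.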

How the data were processed

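Total RNA from 3 Sesn3 KO and 3 WT mouse liver samples was sequenced after TruSeq library preparation, per the labels' protocols. The deposited table holds raw counts per gene made by the authors, and STAR 2.5, featureCounts (Subread 1.5.3), edgeR 3.20.8 and mm10 are named in the submitters' processing notes. No source used here gives the annotation, the strand setting or the handling of multi-mapping reads. Libraries held 18882220 to 24098512 counts. Genes were kept with filterByExpr and scaled by TMM, and KO was compared with WT over 12945 genes in edgeR 4.0.16 (R 4.3.3) by the robust quasi-likelihood test with Benjamini-Hochberg adjustment at 0.05. A parallel test on simulated data with 12847 genes recovered 4% of 1.5-fold, 62% of 2-fold, 100% of 4-fold and 94% of 8-fold changes. The simulation gave every gene the same dispersion (biological coefficient of variation 0.232). Genes that vary more between libraries can thus be missed at larger folds. In the real data Serpina1e, 15.0-fold lower in KO, was not called (adjusted p = 0.0800, edgeR). Alternatives used DESeq2 1.42.0, limma 3.58.1, other scalings and filters, summed copies, coding lengths, a prior count of 0.5 instead of 2 for log2 CPM, and leaving out each library. Coding sequences came from GENCODE release 21.

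The 6 genes and all lists were chosen with earlier results of these data known, so no p-value is given for the 6. Genes named in a list are up to 5 called ones with the largest differences and a mean of at least 1 CPM, plus defining genes of each path. A result on 1 gene of this rule is not reported here. The labels carry no replicate numbers, so replicates were numbered in accession order and not paired.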

Additional observations from a re-analysis of the deposited data

How the results depend on the processing

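No paired analysis was possible because the labels give no replicate numbers. The 6 Cyp4a genes kept the sign of their log2 difference under every alternative run: other scalings, filters and tests, and each library left out in turn. For the 5 whose groups did not overlap, leaving out 1 library could hardly have reversed the sign, so this adds no support. Cyp4a32, whose groups overlapped, had no clear direction to keep, at 0.17 to 0.93 with 1 library left out. With near-identical copies summed, the log2 difference was 2.46 for Cyp4a10, Cyp4a31 and Cyp4a32 together and -5.21 for Cyp4a12a and Cyp4a12b together. Cyp4a10 is the most abundant part of the first sum, which gives no separate value for Cyp4a32. Counts moved more. Scaling by library size alone, which shifts the median of all genes by 0.21, gave 707 genes higher and 258 lower. DESeq2 gave 921 higher and 1061 lower, 11 PPAR-alpha targets higher and 5 lower, and 2 growth hormone path genes lower. Leaving out 1 library gave 48 (without KO replicate 2) to 504 genes higher and 53 to 475 lower, 2 to 8 PPAR-alpha targets higher and 0 to 1 lower, and 0 to 1 growth hormone path genes higher and 0 to 2 lower. The cause was not tested. At this depth, Cyp4a31 in WT rests on 8 to 42 counts.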

Other observations

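Cux2, a transcription factor of female liver that represses male-biased genes, was left out of the test by the filter on low counts and was named after its values were seen. Its counts were 3, 70 and 168 in the KO replicates (0.127, 2.70 and 7.24 CPM) and 2, 2 and 1 in the WT replicates (0.105, 0.116 and 0.0534 CPM). KO replicate 1, the KO library with the highest Cyp4a12a and Cyp4a12b and the lowest Cyp4a14, was near the WT libraries in Cux2. In that library Cyp4a12a was at 3.93 CPM, against 25.5 to 264 in WT. A link between Cux2 and the Cyp4a genes was not tested.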
